A study of Mus musculus with 2 samples.

Results

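The keratin genes of mouse pancreatic tumours were followed by single-cell RNA-seq through tumour, mesothelial, stromal and immune cells. Members were every gene in the deposited gene list whose symbol is Krt followed by digits and at most 1 letter, which gave 53 of 32285 genes. Of these, 28 encode type I and 25 type II keratins, 27 lie on chromosome 11 and 26 on chromosome 15. Krt18 is the 1 type I gene on chromosome 15. A UMI (unique molecular identifier, 1 counted transcript end) was found in kept cells for 40 members, and 13 had none. The 23 members with at least 20 UMIs are named here, 14 of type I and 9 of type II.

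Tumours grew from KPC cells, a widely used mouse pancreatic cancer model, placed in the pancreas and were taken on day 21. The control group was Porcnfl/fl littermates, labelled WT, and the knockout group was Csf1r-Cre;Porcnfl/fl, so both groups carried the floxed Porcn allele and the knockout group also carried the Cre, which the labels call macrophage-specific. Csf1r-Cre acts in cells that express Csf1r, chiefly macrophages, and Porcn encodes the enzyme that lipid-modifies Wnt proteins for secretion. The tumours of 5 mice were pooled into 1 library per group, so the spread between mice was not measured and no test between the groups was possible; age and strain are not given in the sources used here. Intervals, given in brackets, are exact at the 95% level for the counts alone and hold no biological spread.

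Keratins are the intermediate filament proteins of epithelial cells. A filament is built from pairs of 1 acidic type I and 1 basic type II chain, so the products of both gene groups are needed. Simple, single-layered epithelia such as the pancreatic duct use Krt8 with Krt18 and Krt19, often with Krt7, and gut-type epithelium adds Krt20. Stratified epithelium uses Krt5 with Krt14 in its basal layer, Krt1 with Krt10 above it, Krt4 with Krt13 in moist linings, and Krt6a, Krt16 and Krt17 in stressed or wounded tissue, while a further set builds hair and nail.

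The control library held 173934025 UMIs over 13766 barcodes and the knockout library 137527647 UMIs over 12251 barcodes, and 11516 and 10467 cells were kept, with a median of 12167.5 and 10109 UMIs. The libraries shared 46 barcodes, 38 of them among kept cells. Porcn had 8 UMIs in 520 control and 4 UMIs in 567 knockout monocyte/macrophage-like cells, and whether these 3′ tags lie within the deleted part is not known, so they do not check the genotype. Cells were clustered without any keratin among the variable genes and classes were named from markers that included no keratin. The epithelial/tumour-like class had 8715 control and 4966 knockout cells. Its markers Tspan8 (1140 and 1120 UMIs per 1000000 UMIs of the class, CPM, in the control and knockout libraries), Cdh1 (302 and 259 CPM), Spint2 (208 and 161 CPM) and Lsr (71 and 61.5 CPM) were present. The defining epithelial markers Epcam (6.79 and 22.8 CPM) and Cldn4 (0.593 and 1.85 CPM) were near 0, with an Epcam UMI in 1.03% and 1.23% of the cells. The mesothelial-like class had 48 and 32 cells and all 9 of its 9 markers.

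Keratin transcripts were dominated by the simple-epithelial set. Kept cells of both libraries held 1555028 keratin UMIs, of which Krt8, Krt18 and Krt19 made up 98.5%. Krt8 had 536197 UMIs, Krt19 524502 and Krt18 470975. Next came Krt14 with 8147, Krt10 with 4391, Krt16 with 2631, Krt7 with 1952, Krt13 with 1910 and Krt20 with 1159. Fewer than 1000 UMIs were counted for Krt15 (735), Krt17 (612), Krt23 (493), Krt80 (485), Krt78 (151), Krt79 (121), Krt42 (116), Krt33a (107), Krt83 (85), Krt222 (63), Krt76 (47), Krt33b (39), Krt4 (33) and Krt6a (20). A further 17 members had 1 to 19 UMIs. Krt5, the usual type II partner of Krt14, was among the 13 with no UMI in any kept cell. Counting takes 1 tag per transcript at its 3′ end, so these sums are not scaled by gene length.

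By class, the summed keratin level was 6097 CPM in control and 6555 CPM in knockout epithelial/tumour-like cells. The acinar-like cluster, led by Ctrb1 and Prss2, followed with 4326 CPM in 43 control and 5567 CPM in 318 knockout cells. Tumour transcripts were near their tumour level there, with Tspan8 at 87.9% and 96.6%, Cdh1 at 118% and 112%, Lgals2 at 80.4% and 91.1% and Slurp1 at 73.5% and 81.9% of the epithelial/tumour-like level of the same library, and their part in its keratin level was not tested. Mesothelial-like cells held 2593 and 1194 CPM. Fibroblast-like cells held 528 and 204 CPM, monocyte/macrophage-like cells 519 and 323 CPM, and T-like cells 205 and 152 CPM. In both libraries the tumour cells stood above every other class, and T-like and NK-like cells were among the lowest. Endothelial-like cells of the control library stood out at 2821 CPM, where 5 of 53 cells carried 85.7% of the Krt8 and Krt18 UMIs.

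**Figure D1:**
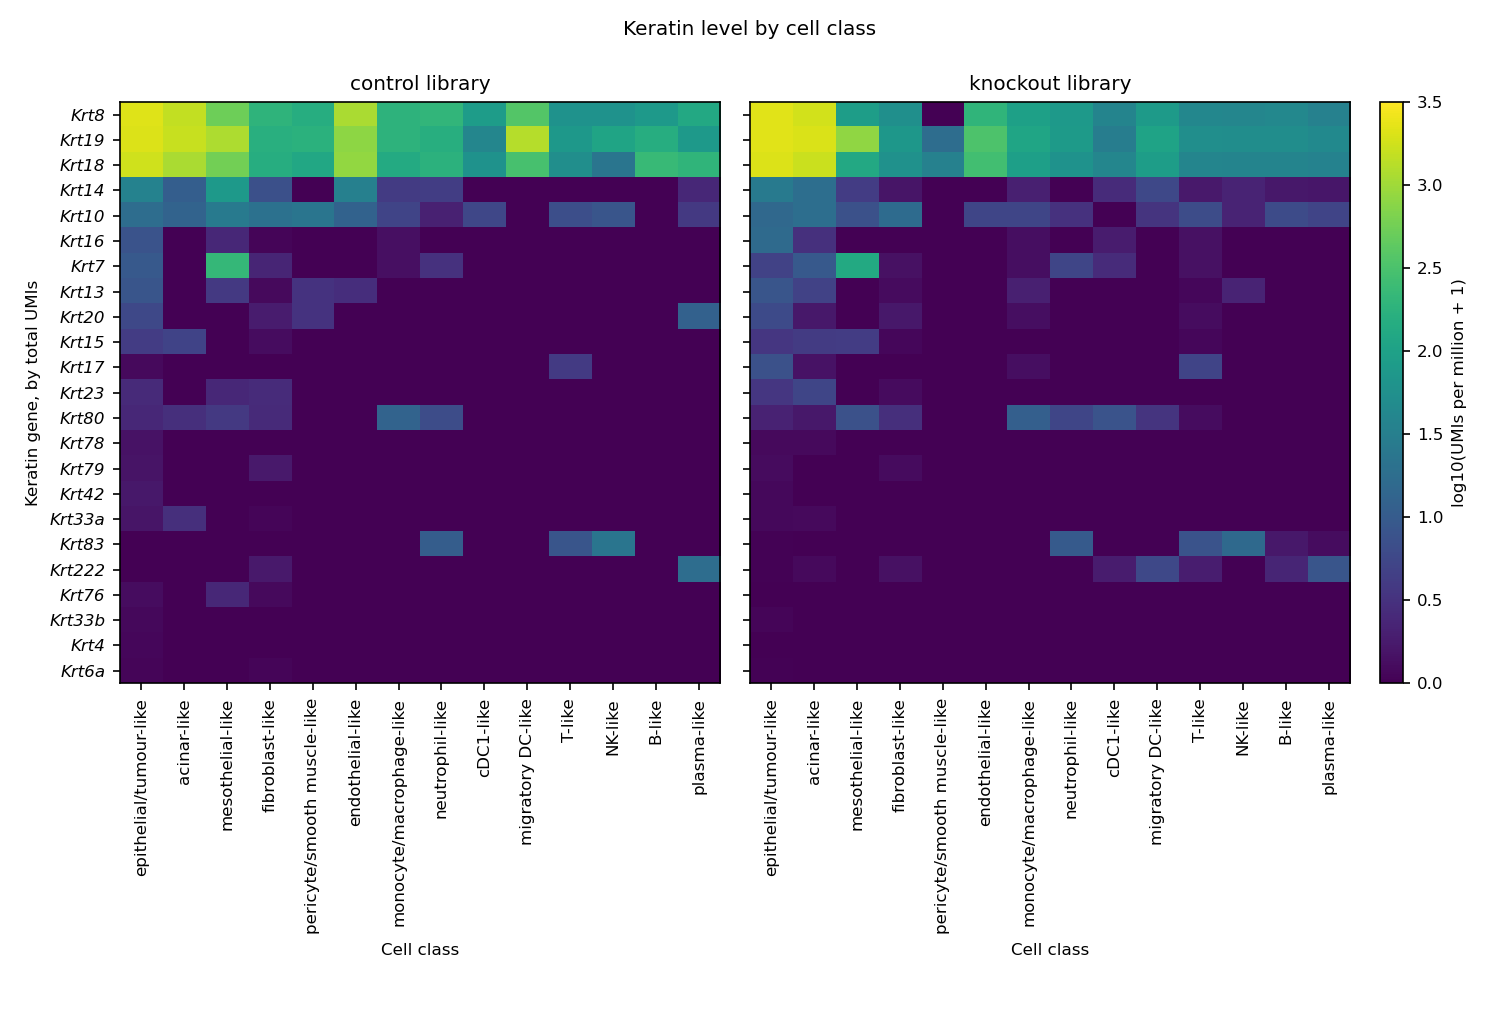
Level of each named keratin (rows, ordered by total UMIs) in each cell class (columns) of the control and knockout libraries, as CPM on a log colour scale. Krt8, Krt18 and Krt19 are highest in epithelial/tumour-like and acinar-like cells, Krt7 in mesothelial-like cells, Krt80 in monocyte/macrophage-like cells, Krt83 in NK-like cells and Krt222 in plasma-like cells.

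Krt8 (type II, ENSMUSG00000049382, chromosome 15, 101996698 to 102004482, minus strand) and Krt18 (type I, ENSMUSG00000023043, chromosome 15, 102028180 to 102032027, plus strand; GENCODE M21 on GRCm38) encode the first keratin pair of the embryo and of simple epithelia. They are neighbours, with starts 23698 bases apart and transcription in opposite directions. Krt19 (type I, ENSMUSG00000020911, chromosome 11, 100140810 to 100148665, minus strand) encodes the small keratin used as a duct marker. The upstream sequences of the neighbouring pair are shown because the genes encode partner chains and lie side by side. They come from RefSeq (GRCm38.p6), run 5′ to 3′ on the gene's strand, are limited to bases outside annotated exons, and carry capitals where a searched motif was found. The Krt8 stretch lies at chr15:102004483-102004592, minus strand, and the Krt18 stretch at chr15:102027966-102028179, plus strand.
Krt8: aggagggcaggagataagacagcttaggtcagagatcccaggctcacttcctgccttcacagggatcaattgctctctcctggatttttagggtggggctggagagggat
Krt18: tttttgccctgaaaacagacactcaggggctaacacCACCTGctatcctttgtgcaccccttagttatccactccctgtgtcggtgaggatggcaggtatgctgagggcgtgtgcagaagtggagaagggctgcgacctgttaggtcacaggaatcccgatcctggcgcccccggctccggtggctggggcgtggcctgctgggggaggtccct
Motifs searched on both strands were TATAAA (the core promoter box bound by TBP), GGGCGG (bound by Sp1 factors), TGACTCA (bound by AP-1) and CAGGTG (the E-box bound by Snail and Zeb factors), which occur in 12.4%, 32.7%, 4.46% and 17.2% of 32851 mouse promoters with 250 upstream bases. Leaving out exons removed the 140 bases next to the Krt8 start and the 36 bases next to the Krt18 start. Those bases were not searched, whereas the shares are for full windows of 250 bases. The Krt8 stretch of 110 bases held none of the motifs. In Krt18 the letters CACCTG, the opposite-strand reading of CAGGTG, lie 214 to 209 bases upstream of the RefSeq start. A match of letters describes the sequence and does not show binding, and no match says only that the letters are absent from this stretch.

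In epithelial/tumour-like cells these genes had near-equal levels in the libraries. Krt8 stood at 2166 CPM in control and 2227 CPM in knockout cells. Its ratio of knockout over control was 1.03 (1.02 to 1.03), but it lay between 0.962 and 0.985 under 4 of the alternatives, so no direction is given for Krt8. Krt19 stood at 2064 and 2180 CPM, a ratio of 1.06 (1.05 to 1.06), which lay at 0.984 with called doublets kept and at 0.992 under coarser clustering. Krt18 was higher in the knockout library, at 2062 against 1779 CPM, a ratio of 1.16 (1.15 to 1.17) that ranged from 1.09 to 1.18 over the alternatives run. Summed over all members the ratio was 1.08 (1.07 to 1.08), with a range of 1.01 to 1.1. These intervals are narrow because the counts are large, and they leave out the unmeasured spread between mice.

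Nearly every tumour cell carried the 3 simple keratins. A Krt8 UMI was found in 97.7% of control and 97.2% of knockout cells, a Krt18 UMI in 96.8% and 97.5%, and a Krt19 UMI in 96.3% and 96.5%. The level per cell was broad. For Krt8 the median cell held 1489 CPM in the control and 1519 CPM in the knockout library, with 10th percentiles of 352 and 280 CPM and 90th percentiles of 3967 and 4243 CPM. The median cell devoted 0.427% and 0.476% of its UMIs to keratins, with 5th percentiles of 0.0836% and 0.0812% and 95th percentiles of 1.35% and 1.42%. No keratin UMI was seen in 31 control and 20 knockout cells.

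After each cell was thinned to 1000 UMIs, which left out 44 control and 22 knockout cells, Krt8 was seen in 71.6% (70.7 to 72.6) and 70.5% (69.2 to 71.8) of epithelial/tumour-like cells. Krt18 was seen in 66.7% (65.7 to 67.7) and 72.5% (71.3 to 73.8), and Krt19 in 67.2% (66.2 to 68.2) and 68.8% (67.4 to 70.0). In T-like cells, which should lack these genes, the thinned Krt8 share was 9.44% of 180 control and 4.64% of 1594 knockout cells, at median depths before thinning of 2823 and 3342 UMIs against 13465 and 15097 in the tumour class. The tumour shares lie well above this background.

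Krt8 and Krt18, the type II and type I partners, were detected together in 52.2% (51.2 to 53.3) of 8671 control and 56.5% (55.1 to 57.9) of 4944 knockout tumour cells at 1000 UMIs. Thinned to 2000 UMIs the shares were 75% and 76.3%, and without thinning they were 95.2% and 95.6%. At 1000 UMIs Krt8 with Krt19 were found together in 53.5% and 54.2%, and Krt18 with Krt19 in 49.4% and 53.9%. Joint detection was lower in other classes. It was 48.4% (42.8 to 54.1) of 316 acinar-like knockout cells, 10.6% (3.55 to 23.1) of 47 and 3.12% (0.0791 to 16.2) of 32 mesothelial-like cells, and 1.67% of 180 and 0.0627% of 1594 T-like cells. Within the tumour class, joint Krt8 and Krt18 detection ran from 34.7% of Samd5/Onecut2 control cells to 69.2% of Muc5b/Slurp1 control cells, clusters that are described next.

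Tumour clusters, named here by leading genes, differed in keratin level in both libraries. Among the 8 clusters of the class with at least 100 cells in each library, called large here, the summed level was highest in the cluster led by the mucin gene Muc5b and by Slurp1, at 8741 CPM in 1230 control and 8693 CPM in 984 knockout cells. It was lowest in the cluster led by Samd5 and Onecut2, at 3689 CPM in 2125 control and 3717 CPM in 573 knockout cells. Highest over lowest gave 2.37 in the control and 2.34 in the knockout library. It was 4.19 and 4.31 under a stricter filter on cells, and 4.51 and 4.97 with keratins allowed to shape the clusters. Under these settings a low-depth cluster (median 5915 and 4056 UMIs per cell) carried the class name, whereas in the main run the low-depth cluster did not. The part of that cluster in the larger values was not tested. The order in between, by the control library, was Muc5ac/Spink4 (7078 and 7974 CPM), Slurp1/Ffar4 (6854 and 4752 CPM), the cluster led by the cell division genes Cenpf and Top2a, labelled cycling (6550 and 7665 CPM), the interferon-gene cluster Cxcl10/Cxcl9 (6236 and 7132 CPM), Ifit1/Ifit3 (4430 and 4428 CPM) and Dkk2/Ank (4215 and 4831 CPM). Mucin-gene clusters were thus high in both libraries. Small clusters led by Lgals4 and Dmbt1, of which 1 with 36 control and 4 knockout cells carries no class name, held together 8613 CPM in 108 control and 11252 CPM in 19 knockout cells. An unnamed cluster led by Inhba and Dynap, which carries no class name, held 4406 and 3905 CPM, and an unnamed cluster of low depth (median 3955 and 3766 UMIs per cell) held 2164 and 1793 CPM.

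Between the libraries, the summed keratin level was lower in knockout cells of the Slurp1/Ffar4 cluster, at a ratio of 0.693 (0.685 to 0.701) over 684 control and 653 knockout cells. In that cluster Krt8 stood at 2199 and 1418 CPM, Krt19 at 2505 and 1548 CPM and Krt18 at 2013 and 1697 CPM. Cycling cells went the other way at 1.17 (1.16 to 1.18), with Krt8 at 2488 and 2757 CPM and Krt18 at 2035 and 2429 CPM. Muc5b/Slurp1 (0.995, 0.987 to 1.0), Ifit1/Ifit3 (1.0, 0.983 to 1.02) and Samd5/Onecut2 (1.01, 0.994 to 1.02) were near 1. Ratios within clusters thus lay on both sides of the class ratio of 1.08.

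Each simple keratin followed the cluster order in its own way. Krt19 had its highest large-cluster level in Muc5b/Slurp1 (3344 control and 3383 knockout CPM), Muc5ac/Spink4 had 2530 and 2988 CPM, and Samd5/Onecut2 had 1206 and 1198 CPM. Krt8 ran over the large clusters from 1333 and 1331 CPM in Samd5/Onecut2 to 3051 and 2942 CPM in Muc5b/Slurp1. Krt18 varied least in the control library, from 1094 CPM in Samd5/Onecut2 to 2280 CPM in Muc5b/Slurp1. Of the other large clusters, Muc5ac/Spink4 had Krt8 at 2502 and 2765 and Krt18 at 1982 and 2168 CPM, and Cxcl10/Cxcl9 had Krt8 at 2164 and 2456, Krt19 at 1942 and 2190 and Krt18 at 2070 and 2430 CPM. Cycling cells had Krt19 at 1914 and 2291 CPM. Ifit1/Ifit3 cells had Krt8 at 1418 and 1343, Krt19 at 1470 and 1253 and Krt18 at 1459 and 1760 CPM, so Krt18 alone was higher in the knockout library there. Dkk2/Ank cells had 1634 and 1700, 1279 and 1551, and 1204 and 1502 CPM for the same genes.

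The small and unnamed clusters held simple keratins in other mixtures. Lgals4/Dmbt1 had Krt8 at 3081 and 4137, Krt19 at 2874 and 3889 and Krt18 at 2314 and 2903 CPM, with 19 cells in the knockout library. Gkn3/Tff2 had Krt8 at 3387 and 2066, Krt19 at 2057 and 1170 and Krt18 at 1875 and 2373 CPM, so that Krt8 was the highest in control and Krt18 in knockout cells. A cluster of tumour genes with the antibody-chain gene Jchain, 70 and 28 cells, had 1878 and 1064 CPM of Krt8, 1707 and 1268 of Krt19 and 1607 and 1071 of Krt18. The unnamed Inhba/Dynap cluster had Krt8 at 1272 and 1051, Krt19 at 1569 and 1381 and Krt18 at 1454 and 1409 CPM, with Krt8 the lowest of the 3 in both libraries. The low-depth cluster had Krt8 at 977 and 764, Krt19 at 636 and 530 and Krt18 at 513 and 481 CPM, with Krt8 the highest. The acinar-like cluster had Krt8 at 1524 and 1837, Krt19 at 1624 and 1999 and Krt18 at 1148 and 1672 CPM. In the Epcam/Pkhd1 cluster, 36 control and 32 knockout cells that do hold Epcam, Krt19 was at 789 and 582 CPM while Krt18 was at 2134 and 2940 CPM. Krt19 over Krt18 was 0.37 and 0.198 there, against 1.16 and 1.06 over the class.

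**Figure D2:**
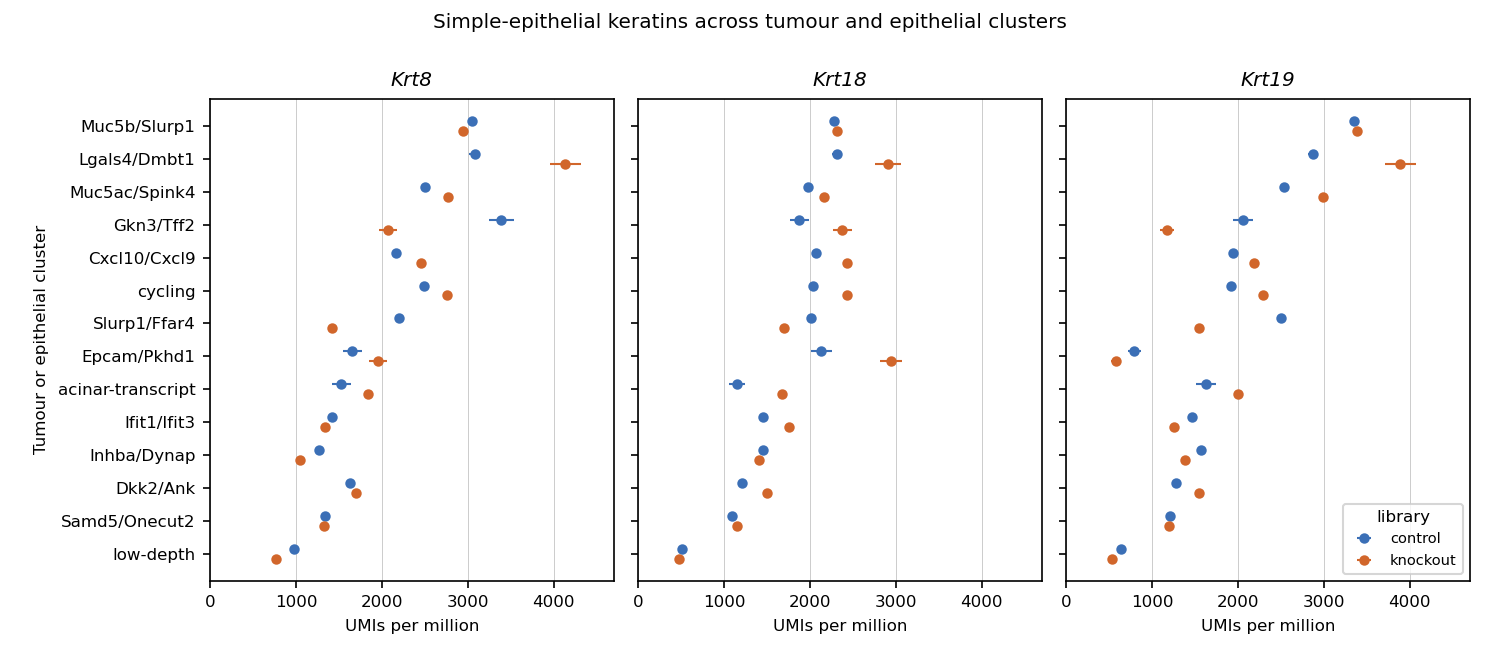
Krt8, Krt18 and Krt19 (panels) as CPM in each tumour or epithelial cluster (rows), with points for the control and knockout libraries and exact intervals for counting error. Among the large clusters Krt8 and Krt19 are highest in Muc5b/Slurp1 and lowest in Samd5/Onecut2, small and unnamed clusters lie outside that range for some genes, and Krt19 lies below Krt18 in the Epcam/Pkhd1 cluster.

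Type I UMIs outnumbered type II UMIs in tumour cells, by 1.80 (1.79 to 1.81) in the control and 1.94 (1.92 to 1.95) in the knockout library. Krt8 supplied 99.5% and 99.7% of the type II sum, whereas Krt18 and Krt19 shared the type I sum. The excess of type I is therefore the sum of these genes against Krt8, with Krt18 over Krt8 at 0.822 and 0.926 and Krt19 over Krt8 at 0.953 and 0.979. Among clusters the ratio was highest in Inhba/Dynap, at 2.44 and 2.70, where both Krt18 (1.14 and 1.34 times Krt8) and Krt19 (1.23 and 1.31 times Krt8) exceeded Krt8. It was low in the low-depth cluster, at 1.21 and 1.34. In the small Gkn3/Tff2 cluster it was 1.14 (1.08 to 1.21) in 19 control and 1.68 (1.58 to 1.78) in 15 knockout cells. The large clusters of the class in between included Slurp1/Ffar4 at 2.11 and 2.34, Ifit1/Ifit3 at 2.12 and 2.29, Muc5ac/Spink4 at 1.82 and 1.88, Samd5/Onecut2 at 1.76 and 1.79, cycling at 1.62 and 1.78 and Dkk2/Ank at 1.57 and 1.83.

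Krt7, Krt20 and Krt23, simple keratins of duct and gut-type epithelium, were rare in the bulk of the tumour cells and concentrated in small clusters. Krt7 (ENSMUSG00000023039, chromosome 15, 101411043 to 101430313) had a UMI in 2.21% of control and 1.03% of knockout cells of the class. Its class level was 8.46 and 3.88 CPM, and the ratio of 0.459 (0.405 to 0.519) was past 2-fold lower. Without the Epcam/Pkhd1 and Gkn3/Tff2 clusters, the ratio was 0.127, and it was at most 0.451 in the alternatives run. In the Gkn3/Tff2 cluster, named for gastric mucous genes, Krt7 reached 332 CPM in control and 174 CPM in knockout cells. Lgals4/Dmbt1 cells held 208 and 95.2 CPM, with a UMI in 74 of 108 and 9 of 19 cells. In the Epcam/Pkhd1 cluster the knockout level was 195 against 152 CPM, with an interval of the ratio from 0.972 to 1.71 that holds 1. The Muc5ac/Spink4 cluster had 6.35 and 0.978 CPM. In the cycling cluster 169 control UMIs stood against 1 knockout UMI, but 110 of the 169 came from 1 cell.

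Krt20 (ENSMUSG00000035775, chromosome 11, 99428403 to 99438150) is the keratin of intestinal and gastric surface epithelium. Its class level was 4.67 and 5.02 CPM, and the ratio of 1.08 (0.951 to 1.22) holds 1. It ranged from 0.868 to 1.38 over the alternatives, and without the top cell of each library it was 0.868 (0.758 to 0.993), where 1 knockout Gkn3/Tff2 cell had held 96 of the 431 UMIs. By cluster Krt20 was highest in Lgals4/Dmbt1, at 69.0 and 157 CPM, with a UMI in 46 of 108 and 11 of 19 cells. Muc5ac/Spink4 cells held 8.41 and 16.4 CPM, a ratio of 1.95 (1.58 to 2.40), while Slurp1/Ffar4 cells (6.01 and 2.80 CPM) and Cxcl10/Cxcl9 cells (2.74 and 0.994 CPM) were lower in the knockout library. No Krt20 UMI was found in the Epcam/Pkhd1 cluster, where the floor of 3 counts lies at 5.48 and 4.30 CPM.

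Krt23 (ENSMUSG00000006777, chromosome 11, 99477974 to 99493137) encodes a type I keratin. It was largely a gene of the Epcam/Pkhd1 cluster, at 226 CPM in control and 235 CPM in knockout cells, with a UMI in 27 of 36 and 23 of 32 cells. Over the class it was 1.60 and 2.59 CPM, a ratio of 1.62 (1.34 to 1.96). Without the Epcam/Pkhd1 and Gkn3/Tff2 clusters the ratio turned to 0.260. It turned to 0.936 with each cluster of at least 10 cells per library given the same weight in both libraries. No direction is therefore given over the class. The Gkn3/Tff2 cluster had 5 UMIs in 19 control and 43 UMIs in 15 knockout cells.

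The upstream stretches of Krt20 and Krt23 are shown because these genes separate the Lgals4/Dmbt1 and Epcam/Pkhd1 clusters. The Krt20 stretch lies at chr11:99438154-99438403 and the Krt23 stretch at chr11:99493138-99493370, both on the minus strand of GRCm38.p6 from RefSeq, with matches of the 4 motifs in capitals.
Krt20: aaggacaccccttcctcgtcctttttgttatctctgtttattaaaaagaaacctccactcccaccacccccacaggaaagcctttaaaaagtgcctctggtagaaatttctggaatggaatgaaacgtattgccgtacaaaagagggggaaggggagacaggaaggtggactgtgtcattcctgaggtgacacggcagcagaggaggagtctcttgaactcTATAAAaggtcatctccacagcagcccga
Krt23: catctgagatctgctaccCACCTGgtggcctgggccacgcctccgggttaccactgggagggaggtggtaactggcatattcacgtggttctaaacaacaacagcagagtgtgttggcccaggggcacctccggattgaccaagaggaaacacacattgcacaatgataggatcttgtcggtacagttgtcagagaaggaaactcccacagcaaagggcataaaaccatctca
Krt20 has TATAAA 29 to 24 bases upstream of its start, and Krt23 has CACCTG 232 to 227 bases upstream. The 17 bases next to the Krt23 start were left out and not searched, while the Krt20 stretch is the full 250 bases. Of the 53 members 36 were in the promoter table, 13 of them named here. Krt19 and Krt17 were not, and for Krt7 no stretch is shown because its window overlaps annotated exons.

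**Figure D3:**
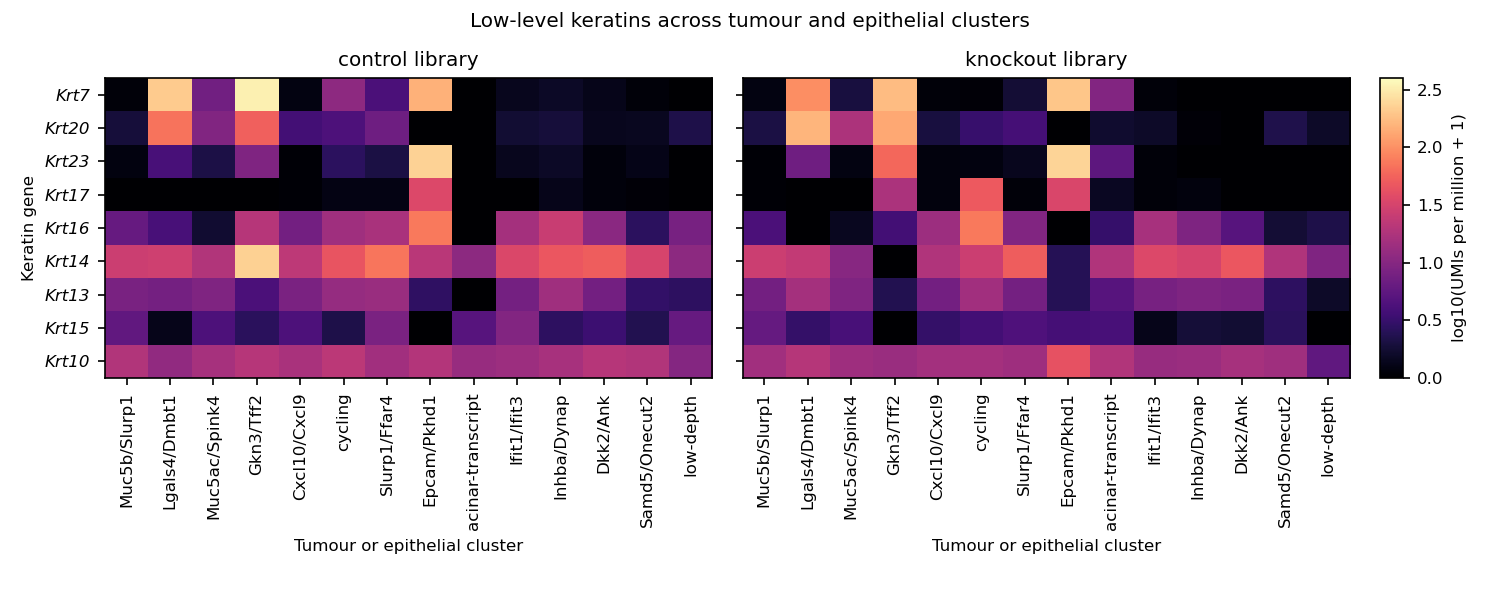
Level of the less abundant keratins (rows) in tumour and epithelial clusters (columns) of the control and knockout libraries, as CPM on a log colour scale. Krt7 is highest in the Gkn3/Tff2, Lgals4/Dmbt1 and Epcam/Pkhd1 clusters, Krt20 in Lgals4/Dmbt1 and Gkn3/Tff2, and Krt23 in Epcam/Pkhd1, while the Krt17 value of knockout cycling cells comes from 1 cell.

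The stratified keratins were low in the class and present in few cells. Krt14, the basal-layer type I keratin, had a UMI in 12% of control and 10.8% of knockout tumour cells. It stood at 34.8 and 25.9 CPM, a ratio of 0.745 (0.709 to 0.784) that ranged from 0.696 to 0.779 over the alternatives. Among large clusters Krt14 was highest in Slurp1/Ffar4 (71.1 and 50.3 CPM) and Dkk2/Ank (50.1 and 46.0 CPM), was 43.4 and 26.0 CPM in cycling cells, and was lowest in Muc5ac/Spink4 (17.7 and 9.13 CPM). This order differed from that of Krt8 and Krt19, for which Muc5ac/Spink4 lay near the top and Dkk2/Ank near the bottom. Samd5/Onecut2 had 30.9 and 17.4 CPM, Muc5b/Slurp1 26.3 and 26.3, Cxcl10/Cxcl9 21.0 and 17.2 and Ifit1/Ifit3 33.4 and 34.1 CPM. In Gkn3/Tff2 138 control UMIs, in 4 of 19 cells, stood against 0 UMIs in 15 knockout cells. The other small clusters had 27.9 and 22.8 CPM of Krt14 (Lgals4/Dmbt1), 20.1 and 1.43 (Epcam/Pkhd1) and 71.4 and 8.93 (Jchain), the unnamed Inhba/Dynap cluster had 45.6 and 30.3, and the low-depth and acinar-like clusters had 10.0 and 8.18 and 10.0 and 17.2 CPM.

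Krt16, a type I keratin of stressed epithelium, stood at 6.92 CPM in control and 15.3 CPM in knockout cells, a ratio of 2.21 (2.03 to 2.40). In 1 knockout cell of the cycling cluster 613 of the library's 1312 tumour-cell UMIs of Krt16 were found, and without the top cell of each library the ratio was 1.23 (1.11 to 1.36). By cluster, Krt16 was lower in knockout Inhba/Dynap cells (24.9 and 8.0 CPM, ratio 0.322, 0.25 to 0.411), Slurp1/Ffar4 cells (15.7 and 8.41 CPM) and Dkk2/Ank cells (9.84 and 3.93 CPM). It was higher in knockout Cxcl10/Cxcl9 cells (6.53 and 13.0 CPM, ratio 2.0, 1.59 to 2.52) and near-equal in Ifit1/Ifit3 cells (14.7 and 15.5 CPM). Cycling cells had 13.4 and 74.6 CPM including that cell. The remaining clusters were low, with Muc5b/Slurp1 at 5.21 and 3.23, Samd5/Onecut2 at 1.69 and 0.822 and Muc5ac/Spink4 at 0.745 and 0.435 CPM. The 73.0 CPM of control Epcam/Pkhd1 cells rested on 40 UMIs in 2 cells, 39 of them in 1, against 0 UMIs in the knockout library. Other small clusters had 19.4 and 2.72 (Gkn3/Tff2), 3.06 and 0 (Lgals4/Dmbt1) and 10.9 and 3.57 CPM (Jchain), and the low-depth and acinar-like clusters 7.07 and 1.17 and 0 and 2.09 CPM.

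Krt17, which is induced in wounded skin and in duct-derived cancers, had 31 UMIs in control and 542 in knockout tumour cells, or 0.221 and 6.32 CPM, a ratio of 28.5 (19.9 to 42.4). The knockout cell with 613 Krt16 UMIs held 500 of these, 92.3% of the library's. Without the top cell of each library 25 and 42 UMIs were left and the ratio was 2.74 (1.63 to 4.70). That cell had 84400 UMIs in all and was not among the called doublets. It held 58 of Mki67, 24 of Krt8, 56 of Krt18, 32 of Krt19, 38 of Vim (vimentin), 4 of Tspan8, 2 of Cdh1 and 0 of Epcam. Tspan8 was thus at 47.4 CPM and Cdh1 at 23.7 CPM of the cell, against 1120 and 259 CPM in the knockout class. Whether it is a tumour cell was not tested, and the Krt16 and Krt17 ratios of the class rest on its place there. As CPM of the cell, Krt16 was at 7263 and Krt17 at 5924, while Krt8 was at 284, near the 10th percentile of knockout tumour cells (280). Outside it, Krt17 was found in the Epcam/Pkhd1 cluster at 34.7 and 33.0 CPM, with a UMI in 9 of 36 and 9 of 32 cells. Krt14, Krt16, Krt17 and Krt42 are close copies and share stretches of sequence, so the split of reads between them is uncertain.

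Krt10, the type I keratin of suprabasal skin, was spread thinly and evenly. It had a UMI in 21.6% of control and 19.4% of knockout tumour cells at 16.8 and 14.0 CPM, a ratio of 0.831 (0.775 to 0.891), and the top cell held 6 UMIs. Its level in the large clusters of the class lay between 12.8 and 20.7 CPM in the control and between 12.1 and 14.9 CPM in the knockout library. In order these were cycling (20.7 and 14.5), Dkk2/Ank (19.3 and 14.9), Muc5b/Slurp1 (17.8 and 13.9), Samd5/Onecut2 (17.6 and 13.7), Cxcl10/Cxcl9 (15.7 and 14.2), Muc5ac/Spink4 (15.1 and 13.2), Slurp1/Ffar4 (13.9 and 13.3) and Ifit1/Ifit3 (12.8 and 12.1 CPM). The mucin clusters that led for Krt8 and Krt19 did not stand out for Krt10. In the small and unnamed clusters Krt10 was at 19.4 and 12.2 (Gkn3/Tff2), 18.3 and 41.6 (Epcam/Pkhd1), 10.9 and 18.6 (Lgals4/Dmbt1), 14.6 and 14.3 (Jchain), 15.3 and 12.7 (Inhba/Dynap), 8.84 and 4.67 (low-depth) and 12 and 17.7 CPM (acinar-like).

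Of the other stratified keratins, Krt13 of moist linings stood at 7.37 and 7.31 CPM, a ratio of 0.992 (0.897 to 1.1). Krt15, a basal-layer keratin, stood at 3.24 and 2.62 CPM, with a ratio of 0.810 (0.688 to 0.953). Krt80, a type II keratin of many epithelia, stood at 1.49 and 1.19 CPM, with a ratio of 0.800 (0.625 to 1.02). Krt42 stood at 0.672 and 0.187 CPM, a ratio of 0.278 (0.153 to 0.475) that ranged from 0.202 to 0.359, and 10 cells held 61.7% of its control UMIs. Thus the ratios for Krt13 and Krt80 had intervals that hold 1, and Krt42 rested on 94 and 16 UMIs.

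Rarer members gave 20 to 100 UMIs in the class. Control and knockout UMIs were 68 and 20 for Krt78 (ratio 0.480, 0.276 to 0.800), 71 and 24 for Krt79 (0.552, 0.332 to 0.887), 81 and 15 for Krt33a (0.302, 0.162 to 0.528), 25 and 9 for Krt33b (0.587, 0.241 to 1.3) and 20 and 2 for Krt4 (0.163, 0.0185 to 0.672). For Krt76, a palate keratin, 42 control UMIs in 19 cells, 18 of them in 1, stood against 0 in the knockout library, where the floor of 3 counts is 0.0350 CPM. Without the top cell of each library the Krt33a ratio was 0.617 (0.308 to 1.17) and the Krt79 ratio 0.280 (0.133 to 0.536), on 64 and 11 UMIs. Krt6a had 14 and 5 UMIs, in 2 cells of each library. Krt33a with Krt33b and Krt6a with Krt6b are near-identical copies, and their counts are uncertain.

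Counted together, 20 members reached 20 UMIs in the epithelial/tumour-like class. The knockout level was at least 2-fold higher for 2 of them (Krt16 and Krt17), where 4.11% of the 17223 genes tested were, and at least 2-fold lower for 6 (Krt7, Krt78, Krt42, Krt33a, Krt76 and Krt4), where 3.04% of all genes were. Their median log2 ratio was -0.31, against -0.06 over all genes. Krt76 had no knockout UMI, and its place below the median does not depend on its floor. Of the 6 lower members, Krt7 had 1184 control and 333 knockout UMIs, and the others at most 94 in either library. With a minimum of 100 UMIs, 14 members were left, 2 higher and 2 lower, beside 1.77% and 1.92% of 14001 genes, and the median log2 ratio was 0.02 against -0.07. With the top cell of each library left out, only Krt17 stayed at least 2-fold higher, on 25 control and 42 knockout UMIs. Part of these lay in the small Epcam/Pkhd1 cluster, where the Krt17 level was near-equal in the libraries. Krt8, Krt18 and Krt19, which carry nearly all the keratin UMIs, were not past 2-fold.

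**Figure D4:**
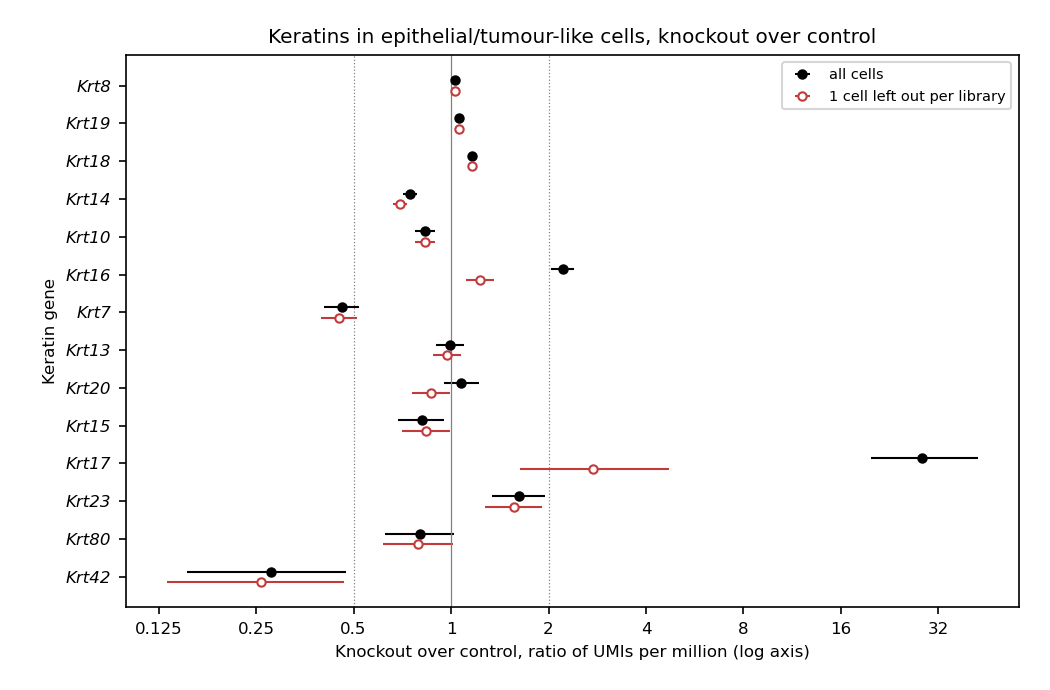
Ratio of knockout over control (log axis) in epithelial/tumour-like cells for each keratin with at least 100 UMIs, with exact intervals for counting error and, as open points, the ratio without the top cell of each library. Krt8, Krt18 and Krt19 lie near 1, and Krt17 moves from 28.5 to 2.74 and Krt16 from 2.21 to 1.23 when 1 cell per library is left out.

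Mesothelial cells line the body cavity and organ surfaces and are known to make simple keratins together with vimentin. Mesothelial-like cells carried Krt19 at 1154 CPM in control and 821 CPM in knockout cells. Krt7 stood at 213 and 135 CPM, against 8.46 and 3.88 CPM in tumour cells of the same libraries, and was higher here than in any other class. Krt8 stood at 537 and 86.6 CPM and Krt18 at 574 and 128 CPM. The ratios of knockout over control were 0.712 (0.616 to 0.820) for Krt19, 0.632 (0.438 to 0.895) for Krt7, 0.161 (0.105 to 0.238) for Krt8 and 0.223 (0.157 to 0.310) for Krt18. Without the top cell of each library the Krt19 ratio was 0.507 (0.426 to 0.6). Over the alternatives run the ratio ranged from 0.216 to 0.862 for Krt8 and from 0.212 to 0.985 for Krt18, both highest under coarser clustering. The summed level was 2593 and 1194 CPM, a ratio of 0.460 (0.411 to 0.515).

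Transcripts of tumour cells were also lower in the knockout mesothelial-like cells, to unlike degrees. Tspan8 stood at 210 and 12.8 CPM, with a UMI in 22 of 48 control and 3 of 32 knockout mesothelial-like cells, and Cdh1 at 41.2 and 0 CPM. Lgals2 differed less, at 111 and 77.0 CPM, with a UMI in 20 of 48 and 14 of 32 cells. In the 26 control and 29 knockout cells with no Tspan8 UMI, Krt19 was at 770 and 792 CPM, Krt7 had 37 and 25 UMIs, Krt8 was at 226 and 75.6 CPM and Krt18 had 29 and 25 UMIs, and the ratio of the keratin sum was 0.796. These control cells were shallower, with a median of 8864.5 UMIs against 18573.5 in the control cells with Tspan8. Under coarser clustering the class held 297 and 66 cells, and its cluster was led by Col24a1, Saa3 and Timp1, with 1 of the class markers among its 10 leading genes. Col24a1 and Timp1 also lead a fibroblast-like cluster at the resolution used elsewhere. In that larger class the ratio was 1.17 for the sum, 1.62 for Krt19 and 1.72 for Krt7, so no direction is given for these. The Krt19 ratio was 1.03 in cells with no Tspan8 UMI, where the highest of all, a knockout cell of 11010 UMIs, was at 7902 CPM. That cell held 87 of the 220 Krt19 UMIs of the 29 knockout cells. The near-equal Krt19 level thus rests in part on 1 cell, and the ratio without it was not computed. Krt18 in the cells with no Tspan8 UMI was at a ratio of 0.85 and Krt8 at 0.334.

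In both libraries the keratin mixture of mesothelial-like cells differed from that of tumour cells. Type I over type II was 2.44 (2.20 to 2.70) and 4.17 (3.21 to 5.47), Krt8 made up 71.2% and 37.5% of the type II sum, and Krt19 exceeded Krt18 2.01 and 6.40 times. Krt7 supplied nearly all the remaining type II UMIs. In the knockout library 1 of 32 cells held 87 of the 256 Krt19 UMIs, where the type I sum was 300 UMIs. The knockout ratios of this mixture were not computed without that cell. Krt14 had 54 UMIs in 13 of 48 control cells (76.8 CPM) and 1 UMI in the knockout cells, and Krt10 had 19 and 2 UMIs (27.0 and 6.42 CPM). These control values were the highest of any class for both genes, from few cells.

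**Figure D5:**
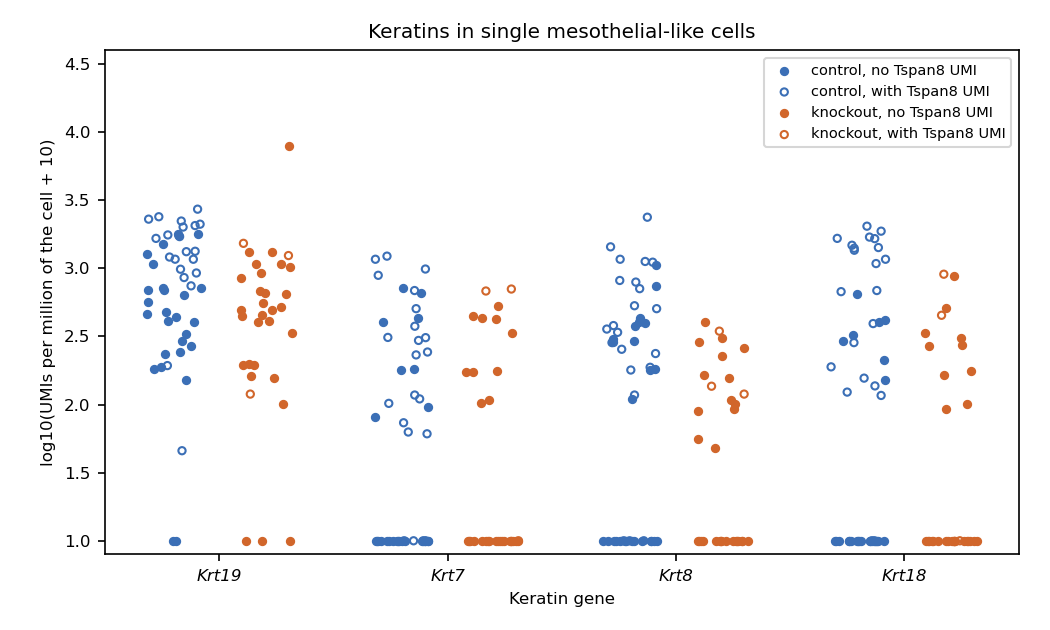
Level of Krt7, Krt8, Krt18 and Krt19 in each mesothelial-like cell, as log10 of CPM plus 10, for the control (48 cells) and knockout (32 cells) libraries, with cells that carry a Tspan8 UMI marked apart. Krt19 is present in most cells of both libraries with its highest value in a knockout cell, and the highest Krt8 and Krt18 cells are control cells with Tspan8.

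Leukocytes are known to lack simple keratins, while for fibroblast-like and other stromal cells this was not assumed. The levels of both are given beside other tumour transcripts as shares of the tumour level of the same library. In T-like knockout cells Krt8 was at 1.84%, Krt18 at 1.86% and Krt19 at 2.38%, with Tspan8 at 1.82%, Muc5ac at 1.81%, Cdh1 at 9.86% and Spint2 at 31.5%. Control T-like cells held 2.81%, 3.0% and 3.52% of the keratins, with Tspan8 at 3.51%, Cdh1 at 11.8% and Spint2 at 18.5%. Fibroblast-like cells held Krt8 at 8.63% and 2.47%, with Tspan8 at 8.58% and 3.79% and Muc5ac at 4.6% and 10.4%. Monocyte/macrophage-like cells held Krt8 at 8.43% and 4.34%, with Tspan8 at 7.41% and 3.82% and Cdh1 at 24.8% and 11.1%. In T-like knockout cells Krt8, Krt18, Tspan8 and Muc5ac thus stood at like shares, while Cdh1 and Spint2 stood higher. The part of free RNA in these levels was not tested. Knockout endothelial-like cells had Krt19 at 15.3% and Tspan8 at 3.48%, and control migratory dendritic-like cells had 62.1% and 20.4%. Control endothelial-like cells were apart, with Krt8 at 52.0% and Tspan8 at 35.7%. Among the 18 migratory dendritic-like control cells, 53 of the 57 Krt8 and Krt18 UMIs came from 1 cell. Taking all kept cells without the epithelial, tumour and acinar clusters, the keratin sum was 664 and 203 CPM.

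Krt10 behaved otherwise, with fibroblast-like cells at 19.5 CPM (16.7 to 22.5) and 15.6 CPM (12.9 to 18.8), which is 115% and 112% of the tumour level. T-like cells held 5.93 and 5.61 CPM of Krt10, or 35.2% and 40.1% of the tumour level, and monocyte/macrophage-like cells 25.3% and 31.1%. The Krt10 shares thus lay above the Krt8 shares of the same classes, and 137 of 620 control and 101 of 731 knockout fibroblast-like cells had a Krt10 UMI.

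A few keratins had their highest level in a class of immune cells. Krt80, with 69.9% of its UMIs in the tumour compartment, had its highest named-class level in monocyte/macrophage-like cells, at 12 CPM (8.16 to 17.1) in 29 of 520 control cells and 10.4 CPM (7.05 to 14.7) in 25 of 567 knockout cells, against 1.49 and 1.19 CPM in tumour cells. An unnamed cluster led by Lyz2 and Ccr2 among its leading genes held 64.3 CPM (43.1 to 92.4) in the knockout library, from 29 UMIs in 15 of 85 cells, and had 8 control cells. Krt83, a hair keratin, was highest in NK-like cells, at 22.2 CPM (3 UMIs) and 14.7 CPM (12 UMIs), with neutrophil-like cells at 9.77 and 8.66 CPM and T-like cells at 7.41 and 6.79 CPM. Tumour cells had 1 and 3 Krt83 UMIs. Only 3.53% of all Krt83 UMIs lay in the tumour compartment. Krt83 belongs to a set of near-identical hair keratins, and its reads may be shared with them.

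Krt222, a keratin-like gene, was highest in plasma-like cells, with 12 UMIs in 12 of 55 control cells (17.0 CPM, 8.79 to 29.7) and 23 UMIs in 20 of 204 knockout cells (7.40 CPM, 4.69 to 11.1). Tumour cells held 0 and 5 UMIs. Krt17 had 29 UMIs in T-like knockout cells, all within 13 of 133 cells of 1 cluster led by Tox and Themis (41.0 CPM, 27.5 to 58.9), and 2 UMIs in T-like control cells. Neither gene followed Krt8 across classes. Among members with under 20 UMIs, Krt86 had 6 UMIs, none in the tumour compartment, and Krt25 had 5 UMIs, all in 1 cell; these were singled out after their values were seen. By level Krt23 was also highest in acinar-like cells of the knockout library (19 UMIs in 4 cells, 4.41 CPM), and Krt15 in control acinar-like cells on 2 UMIs.

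The partners of keratin filaments and the regulators of epithelial state were taken from 7 lists, each read in the epithelial/tumour-like class for genes that reached 100 UMIs there, beside the 1.77% higher and 1.92% lower of all genes and the median log2 ratio of -0.07. Desmosome genes, whose products anchor keratin filaments at cell junctions, had 0 of 9 past 2-fold and a median log2 ratio of -0.20, with Dsp (desmoplakin) at 71.5 and 49.3 CPM (ratio 0.689) and Dsg2 at 59.3 and 81.2 CPM (1.37). The plakophilin genes Pkp3 (0.723) and Pkp1 (0.806) were the next in size of ratio. Hemidesmosome genes, which tie keratin to the basement membrane, had 0 of 5 and a median of -0.25, with Plec (plectin) at 352 and 250 CPM (0.711), Dst at 229 and 184 CPM (0.803) and Itga6 at 149 and 125 CPM (0.842). Other intermediate filament genes had 1 of 6 lower, Synm (7.12 and 2.59 CPM, 0.364), beside Nes at 20.3 and 10.2 CPM (0.501) and Vim at 3983 and 4686 CPM (1.18). The Vim level per tag stood above that of any single keratin in both libraries.

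Keratin binding and modifying proteins had 1 of 10 higher, Krtcap3 (0.657 and 1.69 CPM, 2.57), and a median of 0.02, with Tchh (trichohyalin) at 0.550 and 1.06 CPM (1.93) and Fam83h at 6.30 and 4.72 CPM (0.749). Squamous differentiation genes had 0 of 4 and a median of 0.02. Sprr1a stood at 48.6 and 40.4 CPM (0.832), Sbsn at 11.7 and 9.17 CPM (0.785), Ivl (involucrin) at 0.557 and 0.734 CPM (1.32) and S100a7a at 1.59 and 1.97 CPM (1.24). With at least 20 UMIs, 9 squamous genes were tested and 5 were lower, beside 3.04% of all genes. Their control and knockout UMIs were 95 and 2 (Krtdap), 72 and 20 (Trp63), 34 and 3 (Lor), 26 and 5 (Sprr1b) and 21 and 4 (Tgm3). Each of these had under 100 UMIs, and whether few cells carried them was not tested. Epithelial transcription factors had 1 of 14 higher, Esrp1 (0.429 and 0.909 CPM, 2.12), and a median of -0.18. Grhl2 stood at 1.13 and 2.08 CPM (1.84), Elf3 at 22.8 and 13.1 CPM (0.572) and Esrp2 at 4.79 and 2.77 CPM (0.580). Control and knockout UMIs were few for Esrp1 (60 and 78), Grhl2 (158 and 178) and Krtcap3 (92 and 145). The part of the Epcam/Pkhd1 and Gkn3/Tff2 clusters in these 3 ratios was not tested. Mesenchymal transcription factors had 0 of 6 and a median of -0.20. Snai1 stood at 2.77 and 2.03 CPM (0.732), Snai2 at 4.07 and 3.05 CPM (0.750), Twist2 at 8.32 and 7.11 CPM (0.854) and Twist1 at 54.0 and 47.9 CPM (0.887). All of these ratios are differences between 2 libraries without a test.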

How the data were processed

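Single-cell 3′ libraries, 1 pooled library per group, were analysed from the deposited UMI counts. Cell Ranger is named as version 3.1.3 with build mm10 in the submitters' processing notes and as version 8.0.0 per the file headers; which made the counts is not known. The filter asked for 500 detected genes and a mitochondrial share no higher than 15%, and 148 control and 341 knockout barcodes called by Scrublet (expected 8%) were removed. Cells were clustered with scanpy 1.11.5 and leidenalg 0.10.2 (2000 variable genes without keratins, 30 components, 15 neighbours, resolution 1) and named from fixed markers. UMIs were summed per library and class and divided by the class total (CPM). Log2 ratios used a pseudocount of 1 UMI. With 1 library per group there was no test; exact Poisson, conditional and Clopper-Pearson 95% intervals (scipy 1.17.1) cover counting error only, and 3 UMIs were the floor. The ratio step was tested on simulated data. The keratins and lists were chosen with earlier results of these data known. Every keratin with at least 20 UMIs is named. By rule those with at least 100 in tumour cells get ratios, the 6 highest their level by cluster, and each list up to 4 genes with the largest ratio either way. Ratios of rarer members and cluster levels of Krt7, Krt17, Krt20 and Krt23 were added after their values were seen.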

Additional observations from a re-analysis of the deposited data

How the results depend on the processing

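No paired analysis was possible because each group was 1 library and no test was run. In epithelial/tumour-like cells the ratio of the keratin sum, 1.08, was 1.03 with a stricter filter on cells, 1.01 with doublets kept, 1.1 with keratins among the variable genes, 1.02 at Leiden resolution 0.5, 1.08 as a mean over cells, 1.04 with clusters weighted alike, 1.07 with unnamed clusters nearest the class added, 1.09 with the lymphoid level subtracted, 1.04 with all unnamed tumour clusters added and 1.09 without the 50 genes with most UMIs. Krt8 reversed to 0.985 (stricter filter), 0.962 (doublets kept), 0.97 (resolution 0.5) and 0.984 (all unnamed clusters added), Krt19 to 0.984 (doublets kept) and 0.992 (resolution 0.5), and Krt23 to 0.936 (clusters weighted alike) and 0.260 (without the Epcam/Pkhd1 and Gkn3/Tff2 clusters). The number of members at least 2-fold higher was 1 in place of 2 with doublets kept, at resolution 0.5, as a mean over cells, with clusters weighted alike, with all unnamed clusters added and without the top cell. The number lower was 2 in place of 6 at a minimum of 100 UMIs, where fewer genes are tested. Highest over lowest cluster was 4.19 and 4.31 (control and knockout, stricter filter), 2.49 and 2.76 (doublets kept) and 4.51 and 4.97 (keratins among variable genes), and 2.43 at resolution 0.5 in the knockout library. Under the stricter filter and with keratins among the variable genes a low-depth cluster carried the class name, which it did not in the main run. Type I over type II, 1.80 and 1.94, was 1.83 and 1.96 (stricter filter), 1.84 and 1.99 (doublets kept), 1.79 and 1.91 (keratins among variable genes), 1.84 and 1.98 (resolution 0.5), 1.82 and 1.92 (clusters weighted alike) and 1.82 and 1.98 (all unnamed clusters added), and 1.96 in the knockout library as a mean over cells. The mesothelial-like sum ratio, 0.460, was 0.531 (stricter filter), 0.536 (mean over cells), 0.796 (cells with no Tspan8 UMI) and 0.405 (top cell left out), and reversed to 1.17 at resolution 0.5, as did Krt7 (1.72) and Krt19 (1.62). Krt19 also reversed to 1.03 in cells with no Tspan8 UMI, where 1 knockout cell held 87 of the 220 knockout UMIs. Joint Krt8 and Krt18 detection, 52.2% and 56.5%, was 75% and 76.3% at 2000 UMIs, 95.2% and 95.6% without thinning, and 54.9% in the knockout library with doublets kept. The causes were not tested.

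The top cell left out, the Epcam/Pkhd1 and Gkn3/Tff2 clusters left out, all unnamed clusters added and mesothelial-like cells with no Tspan8 UMI were chosen after seeing the data. Subtracting the lymphoid level gave no value for Krt17, whose control lymphoid level exceeded the tumour level. Under the stricter filter the doublet caller marked no control cell. Clusters weighted alike means that each class cluster had the same weight, its pooled UMIs, in both libraries. Clusters with fewer than 10 cells in either library were left out of that run. Members under 100 UMIs rest on few cells.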
